A study of Mus musculus with 6 samples.

Results

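The genes described are the translation initiation and elongation factors: protein-coding genes of the deposited count table whose symbols begin with Eif or Eef and a digit, leaving out the eIF2 kinases and copies named as pseudogenes. There were 64 of them among the 54532 genes of the table, picked by symbol and gene type. The rule was set with earlier results of these data known. The study used DC2.4, a mouse dendritic cell line grown in culture, in 2 groups of 3 messenger RNA libraries. In 1 group the cells carried the empty pTT5 expression vector, and in the other they were labelled as overexpressing Vdbp, the vitamin D binding protein encoded by the mouse gene Gc. Both groups were transfected, passaged 48 h later and then put under selection, so the controls share the vector and the selection. The labels do not say whether libraries of 1 group came from separate transfections, and p-values here speak only of the spread among these 6 libraries.

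Translation begins when the small ribosomal subunit, with eIF1, eIF1A, eIF3, eIF5 and the eIF2 complex that carries initiator tRNA, is brought to a capped mRNA by eIF4E, eIF4G and the helicase eIF4A, and scans to a start codon. The exchange factor eIF2B recharges eIF2 with GTP, and the 4E-binding proteins hold back eIF4E. In elongation, eEF1A delivers aminoacyl-tRNAs, the eEF1B subunits recharge eEF1A, eEF2 moves the ribosome along, and eIF5A helps it through difficult peptide bonds. In dendritic cells, control of these steps is known to accompany activation, when protein synthesis changes quickly.

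Counts per library totalled between 15563800 and 16710975. Gc, the gene named on the labels, had 0 counts in all 6 libraries, where a count of 0 allows up to 0.180 to 0.193 CPM (counts as a share of the library, scaled for depth). The labels used here name no species for the insert. The deposited counts therefore do not check the overexpression, and the second group is called the libraries labelled Vdbp throughout. Of the dendritic markers, Cd74 (168 and 203 CPM on average in the empty-vector and labelled-Vdbp libraries), Irf8 (59.2 and 54.2 CPM) and Itgax (49.6 and 51.0 CPM) were present, whereas Ciita, the class II chains H2-Eb1, H2-Ab1 and H2-Aa, Flt3, Batf3, Xcr1, Clec9a and Ccr7 were below 0.4 CPM in every library. Zbtb46, another dendritic marker, averaged 2.69 and 2.85 CPM. Summed over 8 macrophage markers, the level was 5153 to 5866 CPM in the empty-vector libraries and 4889 to 5304 CPM in those labelled Vdbp. Lyz2 (1964 and 1583 CPM on average) and Cd68 (1245 and 1204 CPM) were the highest of these 8. Mertk was the lowest, at 0.10 and 0.12 CPM. The markers of T cells, B cells and epithelial cells summed to less than 0.4 CPM in every library, and those of neutrophils and fibroblasts to less than 4 CPM.

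No factor passed the test between the groups. With edgeR's quasi-likelihood test and Benjamini-Hochberg adjustment over 12844 genes, 0 of the 58 factors with enough counts to be tested, and 0 genes of any kind (0%), reached an adjusted p of 0.05. At an unadjusted p under 0.05, 1 of the 58 factors was counted (Eif2b5, above 0), beside 687 genes in all (5.35%; 2.81% of genes were above 0 and 2.54% below). DESeq2 called 11 genes (0.0856%), none of them a factor, and gave 0 factors at an unadjusted p under 0.05 (4.77% of all genes). Leaving out empty-vector replicate 3 gave 22 genes past the adjusted threshold in edgeR, and leaving out replicate 2 of that group gave 1, with 0 factors in both. The median log2 fold change, libraries labelled Vdbp over empty vector, was 0.014 over the 58 factors and -0.0068 over all tested genes. Single factors ranged from -0.23 (Eef1akmt3) to 0.28 (Eif4ebp1), with 33 above 0 and 25 below. These are estimates with errors: the 95% interval lay within a 1.5-fold change in either direction for 55 of the 58 and within 1.25-fold for 23. The libraries are from bulk RNA, in which fewer cells of a kind and less RNA per cell cannot be told apart.

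**Figure D1:**
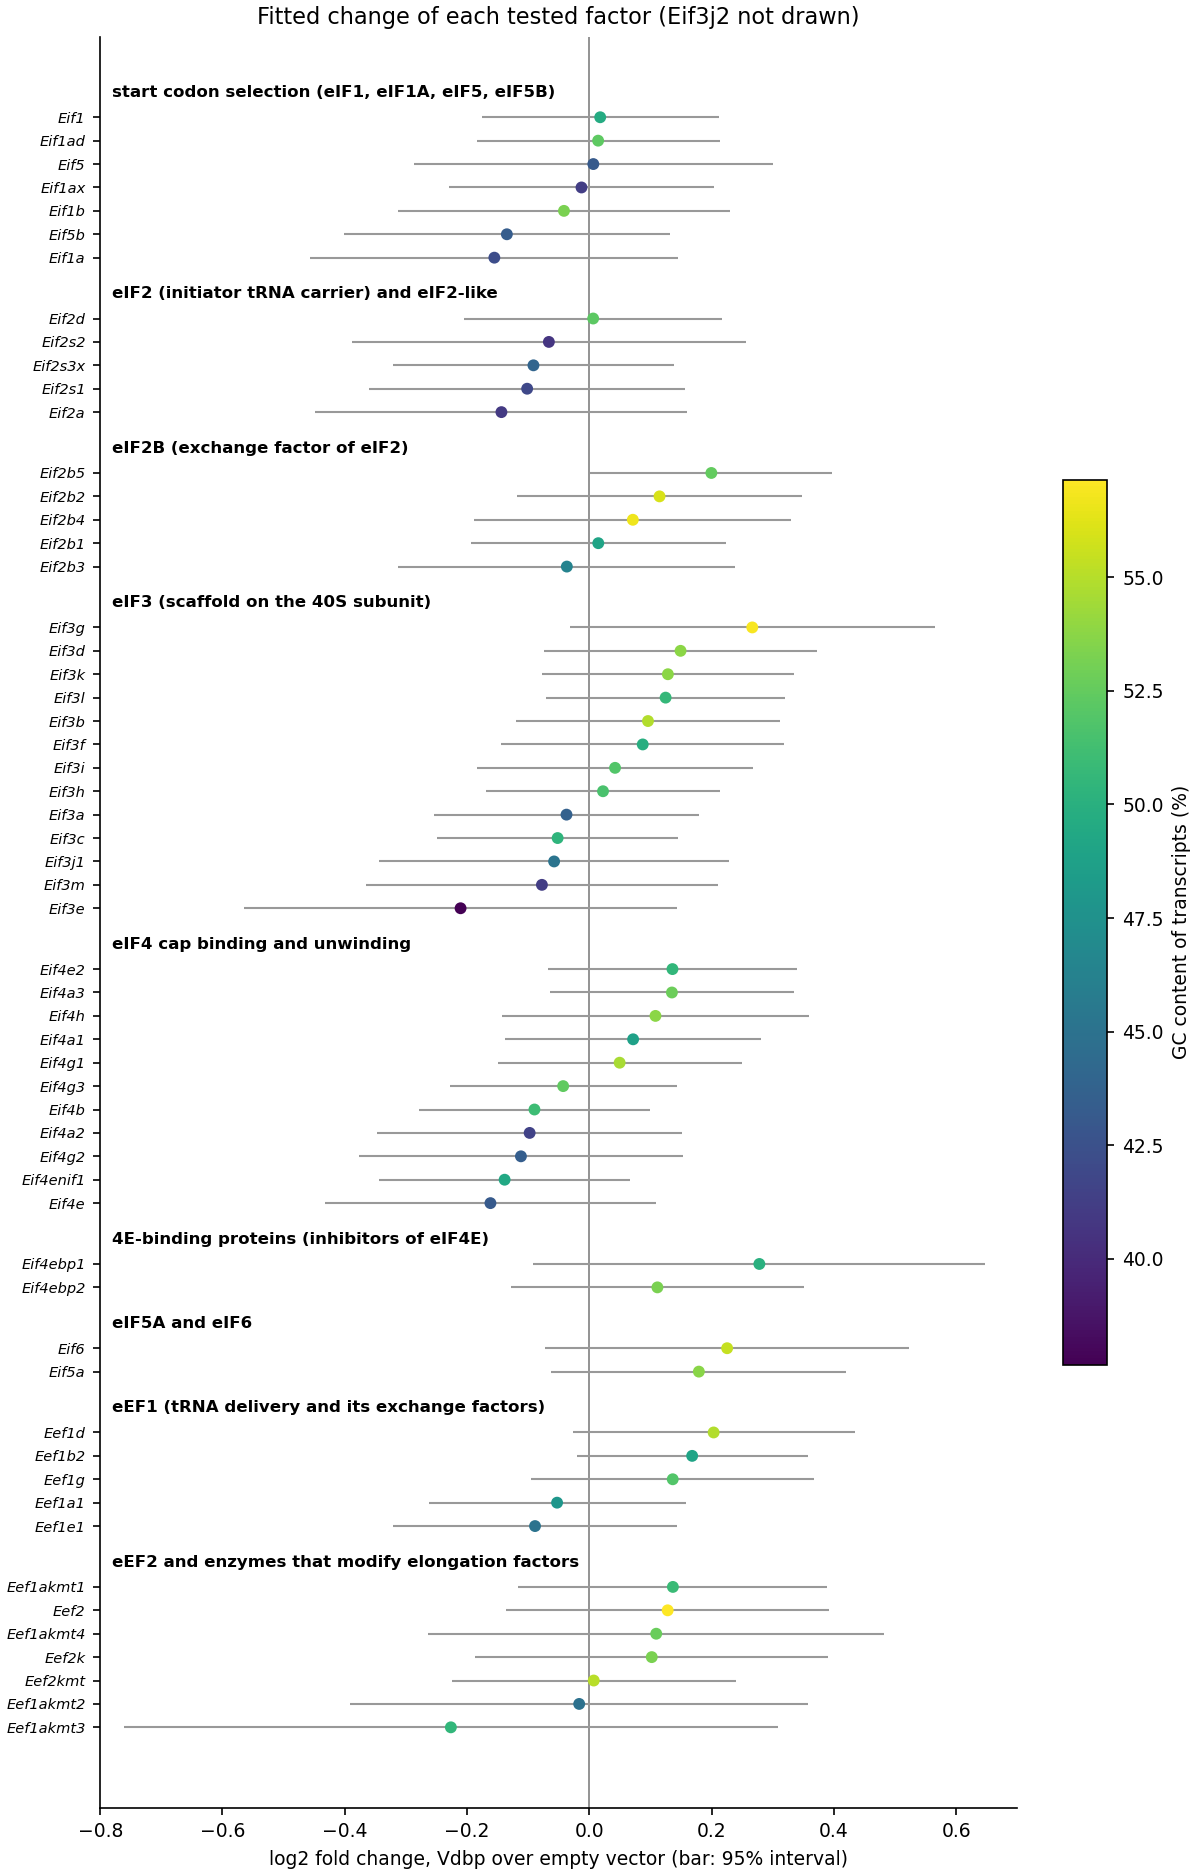
Fitted log2 fold change of each tested factor (points, coloured by the GC content of its transcripts) with its 95% interval (bars), libraries labelled Vdbp (n = 3) over empty vector (n = 3), grouped by role. Dark points of low GC content lie mostly left of 0 and light points of high GC content mostly right; Eif3j2, whose interval runs from -1.15 to 0.88, is not drawn.

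The fold changes followed the base composition of the transcripts. GC content, taken over all annotated transcripts of a gene, ran from 37.7% in Eif3e to 57.1% in Eef2 among the tested factors. The 58 were divided by rank into 19 of low, 19 of middle and 20 of high GC content. Among the 19 of low GC content, 1 had a log2 fold change above 0 and the median was -0.091. Of the 19 in the middle 14 were above 0, and of the 20 of high GC content 18 were, with a median of 0.11 in the last. Across the 58 factors the rank correlation of fold change with GC content was 0.71, and across 12834 genes with a known GC content it was 0.53; genes of 1 library share its preparation and depth, so these are descriptions without a test.

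The difference in composition can be read in the coding sequences themselves. Shown are the first 90 coding bases, 5′ to 3′, of the 3 factors of lowest and the 3 of highest GC content among those averaging at least 100 CPM, with G or C at the last position of a codon in capitals. That position is mostly free to vary without changing the protein. Sequences are from GENCODE M21 transcripts (GRCm38), and coordinates of the whole genes are those of the deposited table, which match that annotation for 61 of the 64 factors.
Eif3e, an eIF3 subunit (chromosome 15, 43250058 to 43282719, minus strand): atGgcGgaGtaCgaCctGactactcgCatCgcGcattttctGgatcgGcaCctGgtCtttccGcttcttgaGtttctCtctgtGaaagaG
Eif2s2, the beta subunit of eIF2 (chromosome 2, 154871410 to 154892935, minus strand): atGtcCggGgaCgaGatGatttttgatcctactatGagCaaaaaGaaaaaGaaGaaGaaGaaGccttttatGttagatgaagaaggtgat
Eif3m, an eIF3 subunit (chromosome 2, 104999656 to 105017080, minus strand): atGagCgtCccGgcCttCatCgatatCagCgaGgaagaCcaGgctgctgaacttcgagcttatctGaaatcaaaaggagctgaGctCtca
Eef2, the translocase (chromosome 10, 81176631 to 81182498, plus strand): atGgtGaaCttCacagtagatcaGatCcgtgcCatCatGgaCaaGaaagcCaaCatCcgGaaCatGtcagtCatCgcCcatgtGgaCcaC
Eif3g, an RNA-binding eIF3 subunit (chromosome 9, 20894349 to 20898623, minus strand): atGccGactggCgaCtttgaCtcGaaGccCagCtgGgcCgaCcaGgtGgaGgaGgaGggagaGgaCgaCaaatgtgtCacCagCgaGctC
Eif6, an anti-association factor of the large subunit (chromosome 2, 155819832 to 155826925, minus strand): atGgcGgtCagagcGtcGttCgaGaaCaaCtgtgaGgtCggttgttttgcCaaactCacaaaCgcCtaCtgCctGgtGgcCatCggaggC

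In these stretches 19, 15 and 15 of 30 codons end in G or C in Eif3e, Eif2s2 and Eif3m, against 23, 25 and 22 in Eef2, Eif3g and Eif6. Over the whole coding sequence the share of codons ending in G or C was 43.1%, 38.4% and 47.9% in the first 3 and 74.2%, 69.7% and 71.4% in the last 3. Fold change ranked with this share less closely (rho = 0.65 over the 58 factors) than with the GC content of the transcripts.

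A single library carried most of the pattern. In the labelled-Vdbp replicate 1, the log2 deviation of a factor from its own mean over the 6 libraries ranked with GC content at rho = 0.84, with a median of -0.30 in the low group and 0.21 in the high group. Deviations of a factor sum to 0 over the 6 libraries, so part of an opposite lean elsewhere follows from this library. Empty-vector replicate 2 leaned the opposite way to it (rho = -0.69, medians 0.19 and -0.15). So did labelled-Vdbp replicate 3 (rho = -0.71, medians 0.10 and -0.059). The pattern thus separated libraries within each group. Without labelled-Vdbp replicate 1, the rank correlation of fold change with GC content was 0.058, the low and high groups had 14 of 19 and 14 of 20 factors above 0, and 26 of the 58 factors changed sign. Leaving out any other library left the correlation between 0.49 (without empty-vector replicate 2) and 0.79 (without labelled-Vdbp replicate 3).

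**Figure D2:**
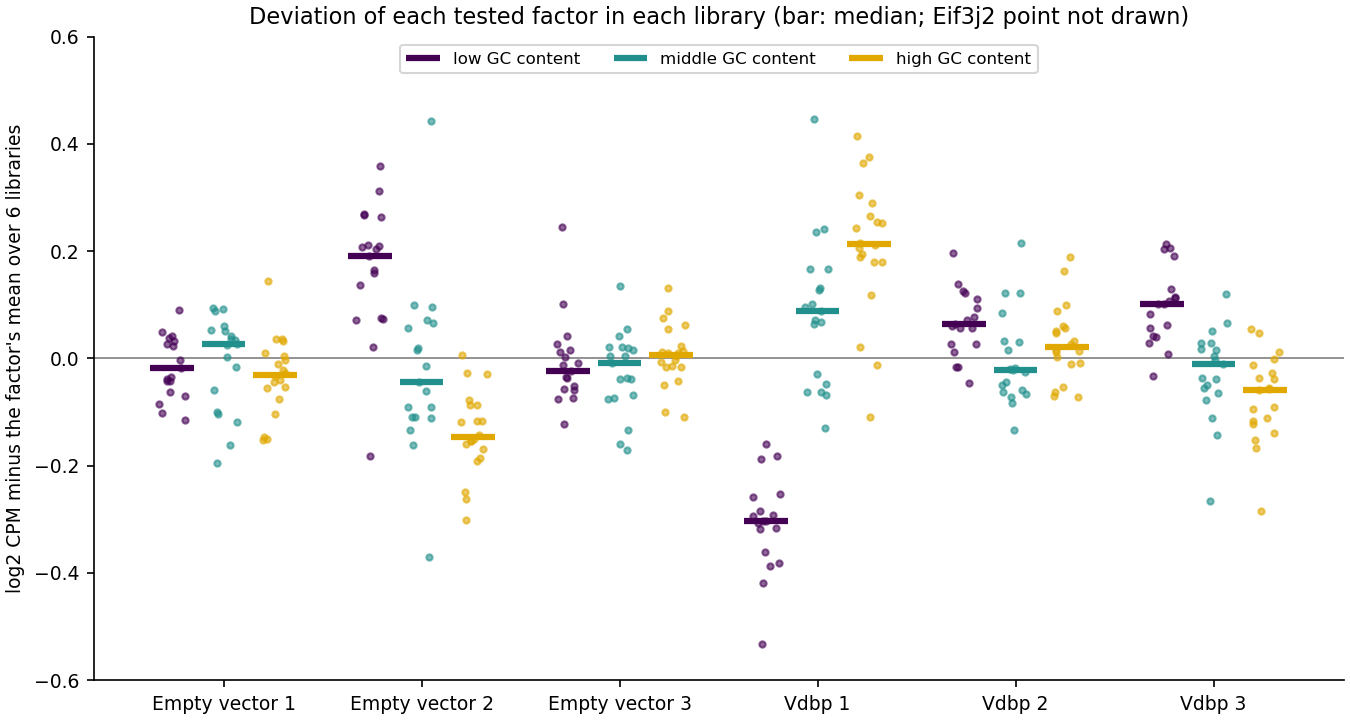
Log2 CPM of each tested factor minus its mean over the 6 libraries (points), by library and by low, middle or high GC content (colour), with the median of each (bars). In labelled-Vdbp replicate 1 the 3 groups separate, with medians of -0.30, 0.088 and 0.21 from low to high GC content, and in empty-vector replicate 2 they run the other way.

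Adding an offset to the fit, a curve for each library over the length and GC content of genes, took the correlation to 0.041. This offset takes out any difference that follows length or GC content, whatever its source, and the source was not tested. With it, 12 of 19 low-GC and 12 of 20 high-GC factors were above 0. The median SE of the 58 log2 fold changes went from 0.11 to 0.062. Intervals within 1.25-fold went from 23 to 53 of the 58. The curves were fitted to these same counts and then taken as known, so these SEs, intervals and p-values leave out their error. Unadjusted p was under 0.05 for 3 factors, Eef1b2, Eif2b5 and Eif4e2, beside 9.23% of all genes, and 0 factors passed the adjusted threshold (2 genes, 0.0156%). The share of factors, 3 of 58, was below that background.

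**Figure D3:**
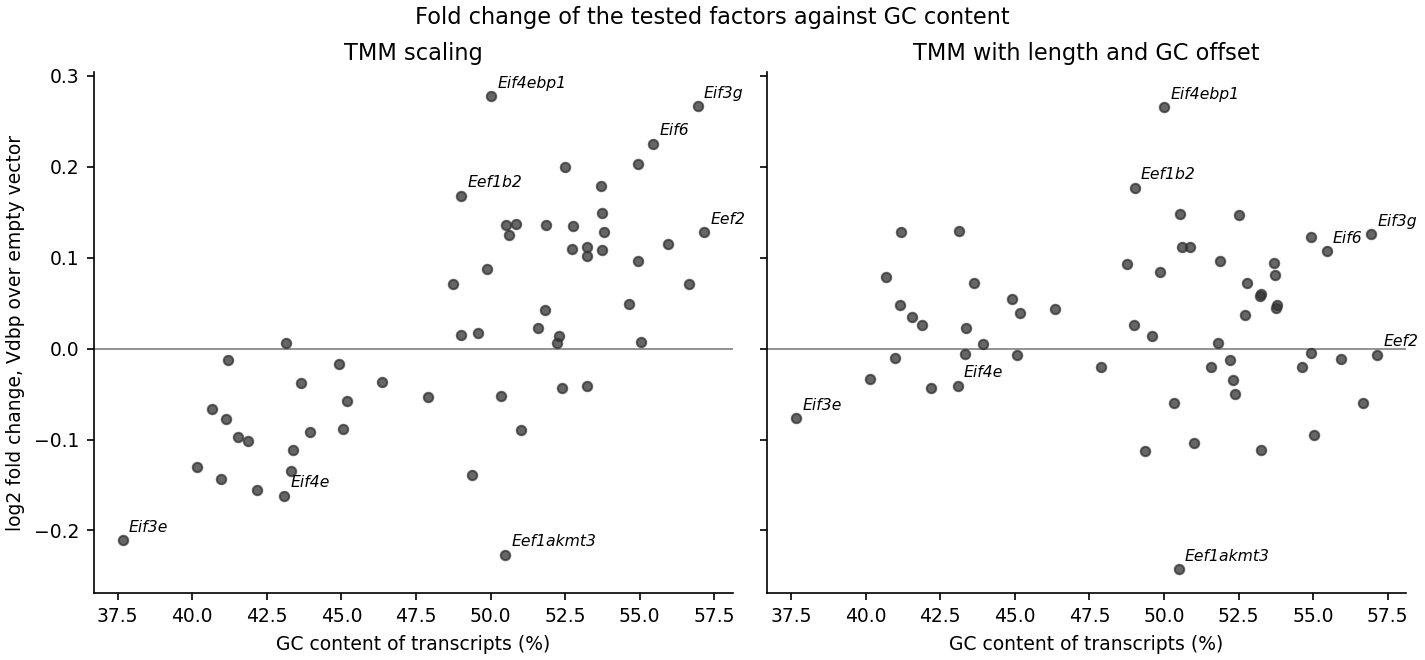
Log2 fold change of the 58 tested factors, libraries labelled Vdbp over empty vector, against the GC content of their transcripts, with TMM scaling alone (left) and with a length and GC offset (right). The rank correlation is 0.71 on the left and 0.041 on the right, while Eif4ebp1 and Eef1akmt3 stay at the top and bottom of both.

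Of all 58 tested factors, 4 had groups that did not overlap in CPM (6.90%, against 10.9% of all genes), with 3 higher (5.26% of all genes) and 1 lower (5.61% of all genes) in the libraries labelled Vdbp. Eif2b5, the catalytic epsilon subunit of eIF2B, had 102, 94.4 and 98.0 CPM in the empty-vector libraries and 120.2, 109 and 109 CPM in those labelled Vdbp. Its log2 fold change was 0.20 (SE 0.091, adjusted p = 0.781) in edgeR, with an unadjusted p of 0.0485, and 0.15 with the offset. Eef1b2, an exchange-factor subunit that reloads eEF1A, was close to it with 499, 496 and 523 CPM against 561, 584 and 561 CPM. All 3 labelled-Vdbp values stood above the highest control by a small margin, and the log2 fold change was 0.17 (SE 0.087, adjusted p = 0.781), or 0.18 with the offset. Eif3l, a peripheral eIF3 subunit, had 316, 322 and 348 CPM against 375, 351 and 349.9 CPM, a gap of under 2 CPM between the groups. Eif4b, the cofactor of the eIF4A helicase, was the 1 factor lower in all 3, at 604, 574 and 574 CPM against 547, 557 and 541 CPM (log2 fold change -0.090 (SE 0.086, adjusted p = 0.795)).

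In total the factors took 2.88%, 2.82% and 2.85% of all counts in the empty-vector libraries and 2.92%, 2.91% and 2.88% in those labelled Vdbp. The groups did not overlap, and the exact two-sided permutation p was 0.1, the smallest that 3 against 3 libraries can give. The gap was narrow, from 2.877% in empty-vector replicate 1 to 2.884% in labelled-Vdbp replicate 3. It also depends on leaving out the copies named as pseudogenes. These copies had 5173 counts in empty-vector replicate 1 and 3485 in labelled-Vdbp replicate 3, and with them added the groups would overlap. Eef1a1 and Eef2 alone made up between 44.3% and 46.8% of the factor counts, without these copies, in each library. Levels of different genes are compared below per length, in the deposited FPKM (fragments per kilobase, scaled to library depth), as mean ± SD over the 6 libraries of both groups. Eef1a1 led at 3352 ± 147 FPKM, followed by Eef2 at 1400 ± 168, Eif5a at 653 ± 75.7 and Eef1g at 516 ± 50.2. Next came Eif4a1 at 295 ± 18.7 and Eef1b2 at 211 ± 14.6, and each of the 6 libraries held these genes in this order. The ranges over libraries of Eif5a and Eef1g met, and those of Eef1b2, Eif3b (196 ± 15.2) and Eif6 (172 ± 28.9) overlapped. The FPKM length is the deposited gene length. With the length of 1 representative transcript instead, the ranks of the 62 factors above 0 correlated with these at 0.937. Single pairs changed places, among them Eif4a1 and Eef1g, at 725 and 724 CPM per kilobase.

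**Figure D4:**
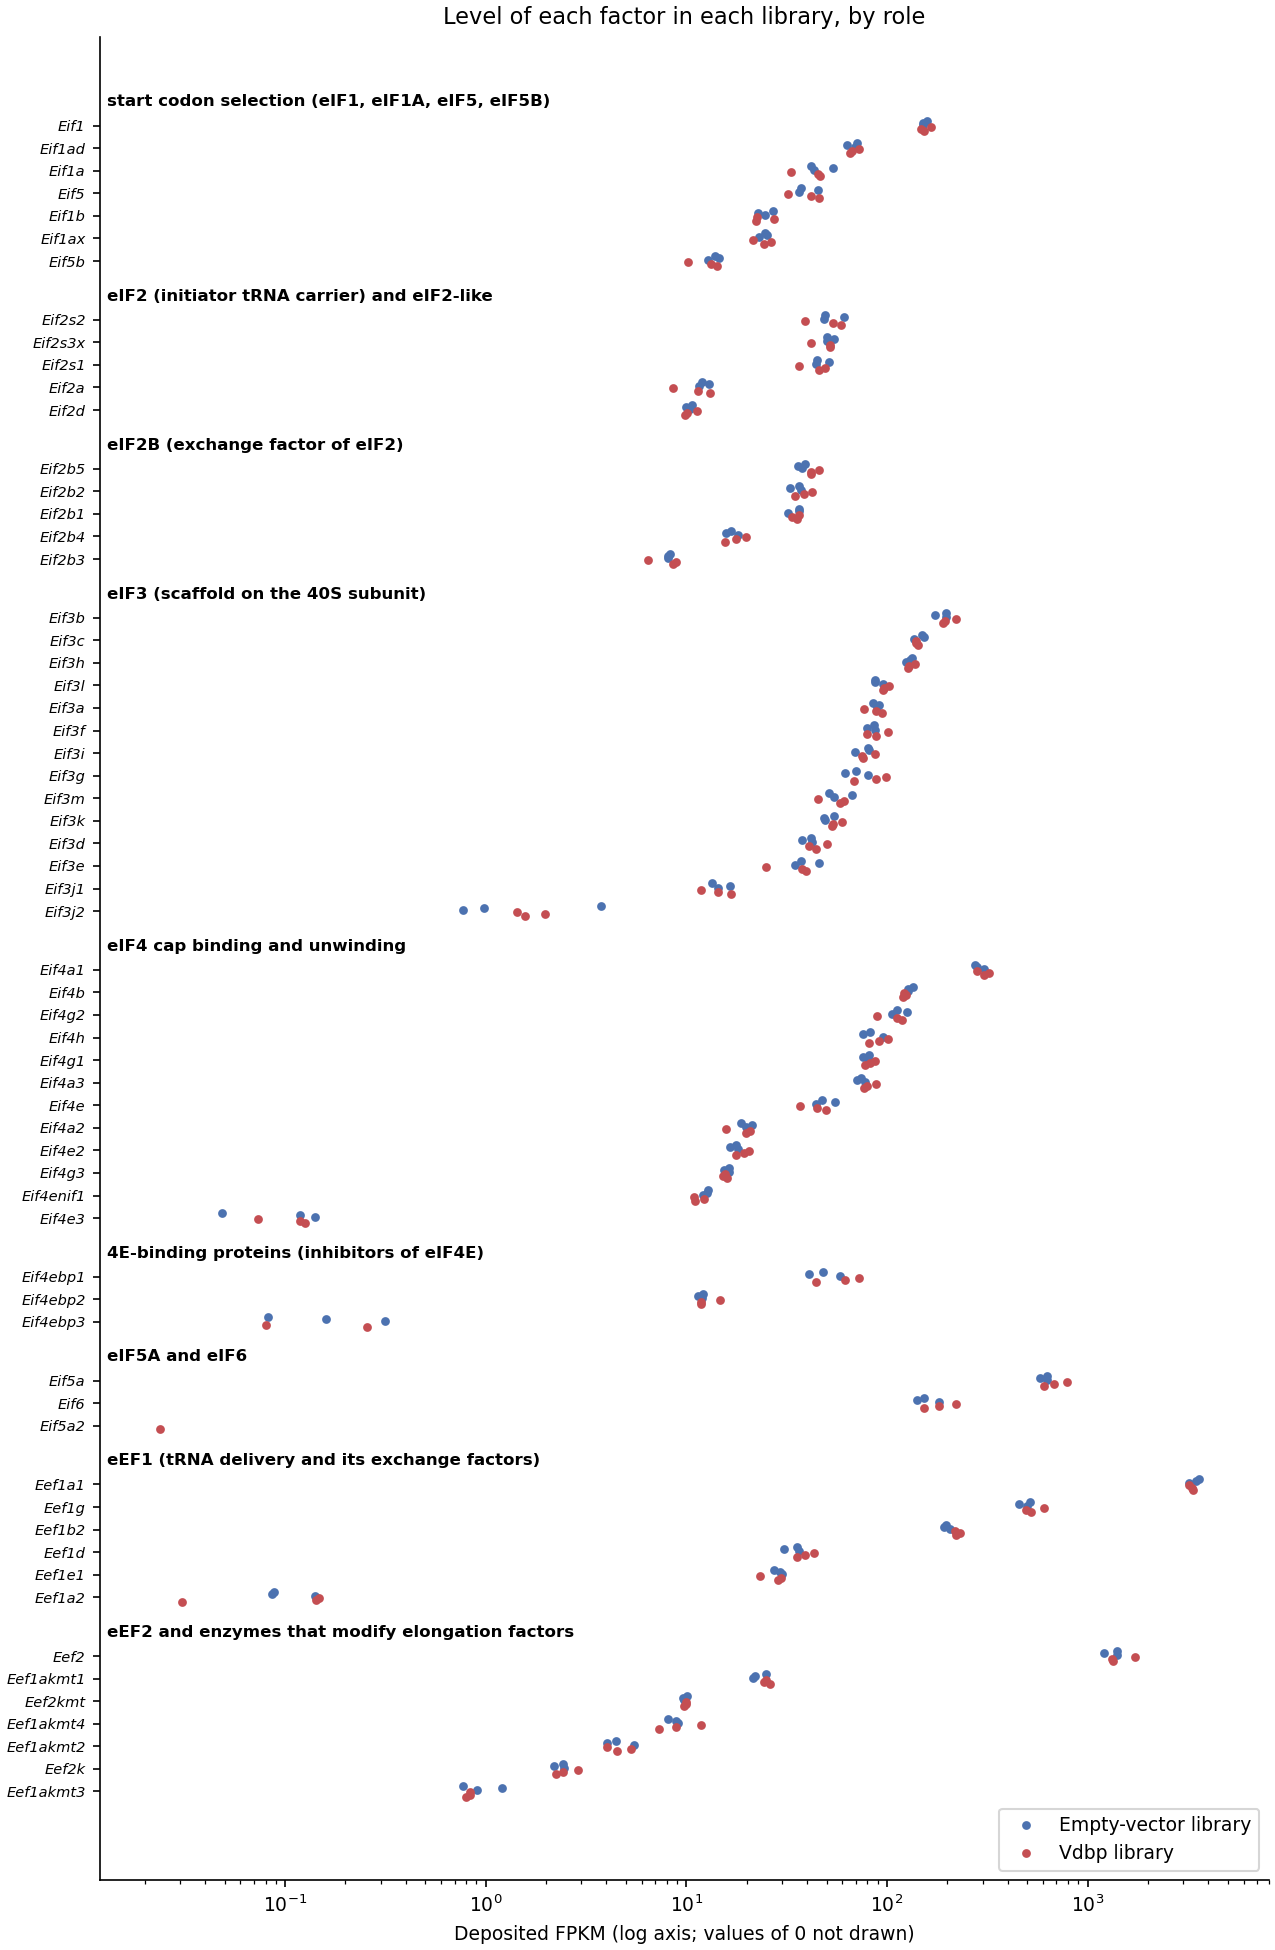
Deposited FPKM of each factor in each library on a log axis, by role, with empty-vector libraries in blue and libraries labelled Vdbp in red. Levels run from Eef1a1 at 3352 FPKM to paralogues below 1 FPKM, and the colours overlap in most rows; Eif2s3y and Eif4e1b, with 0 counts, are not drawn.

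Too few counts for a test were found for 6 factors: Eef1a2, Eif4e3, Eif4ebp3, Eif5a2, Eif2s3y and Eif4e1b. Eif4e1b, known from oocytes, and Eif2s3y, on the Y chromosome, had 0 counts in all libraries. Eef1a2, the eEF1A form of muscle and neurons, had at most 5 counts in a library, Eif4e3 at most 6 and Eif4ebp3 at most 4. Eif5a2 had 2 counts, all in labelled-Vdbp replicate 2.

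In the eIF4 group of cap binding and unwinding, with Eif4a3 placed here by name, none of 11 tested members passed the adjusted threshold. Of them 5 were above and 6 below 0 (6 above with the offset). Eif4a1, the helicase, was the most abundant at 295 ± 18.7 FPKM, with 1199, 1230.4 and 1333 CPM in the empty-vector libraries and 1226, 1397 and 1331 CPM in those labelled Vdbp. Its groups overlapped, and the log2 fold change was 0.072 (SE 0.096, adjusted p = 0.831). Eif4e, which binds the cap, had 285, 335 and 268 CPM against 223, 269 and 301 CPM, with labelled-Vdbp replicate 1 lowest and empty-vector replicate 2 highest, as in other factors of low GC content. Its log2 fold change was -0.16 (SE 0.12, adjusted p = 0.781), -0.041 with the offset and -0.049 without that labelled-Vdbp library. Eif4e2, a cap-binding homologue linked to repression, went the other way at 132, 126 and 137 CPM against 155, 146 and 133 CPM (log2 fold change 0.14, and 0.15 with the offset, where the unadjusted p in edgeR was 0.0377). Eif4enif1, the shuttling protein that carries eIF4E into the nucleus, had the smallest unadjusted p of the group in the fit without the offset, with 81.7, 81.9 and 77.8 CPM against 70.0, 78.2 and 71.0 CPM and a log2 fold change of -0.14 (SE 0.094, adjusted p = 0.781).

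Both tested 4E-binding proteins were above 0. Eif4ebp1 had 105, 91.1 and 129 CPM in the empty-vector libraries and 160.5, 137 and 97.9 CPM in those labelled Vdbp. The values of labelled-Vdbp replicates 1 and 2 stood above all controls, and replicate 3 lay among them. The log2 fold change was 0.28 (SE 0.17, adjusted p = 0.781) and 0.27 with the offset, at a GC content of 50.02%. Leaving out 1 library at a time gave values from 0.11 to 0.45. Eif4ebp2 had 70.0, 67.1 and 69.3 CPM against 85.8, 68.7 and 68.5 CPM, where labelled-Vdbp replicate 1 alone stood apart; its log2 fold change was 0.11 with all libraries and -0.0014 without that one.

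The start-codon group (eIF1, eIF1A, eIF5 and eIF5B, with Eif1ad placed here by name) had 3 of 7 tested members above 0 and 0 called. Eif1ad was among those above 0, at 0.014. Eif1, which keeps scanning accurate, was the most abundant at 155 ± 5.96 FPKM, with 333, 323 and 318 CPM in the empty-vector libraries and 349, 313 and 324 CPM in those labelled Vdbp (log2 fold change 0.018). Eif1a had the smallest unadjusted p of the group, with 121, 157 and 125 CPM against 96.7, 131 and 134 CPM. Again the extremes were labelled-Vdbp replicate 1 and empty-vector replicate 2, and its log2 fold change of -0.16 (SE 0.14, adjusted p = 0.787) became -0.044 with the offset and -0.016 without labelled-Vdbp replicate 1. Eif5, which triggers GTP hydrolysis by eIF2, and Eif5b, which joins the subunits, had log2 fold changes of 0.0065 and -0.13, or 0.13 and -0.0061 with the offset. Without labelled-Vdbp replicate 1, Eif5b was at -0.0014.

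The 3 subunits of eIF2 had these levels per length: Eif2s2 at 51.9 ± 8.06 FPKM, Eif2s3x at 50.2 ± 4.46 and Eif2s1, which carries the serine that stress kinases phosphorylate, at 45.4 ± 5.13. The ranges of all 3 overlapped, though Eif2s3x was above Eif2s1 in each of the 6 libraries. These relations depend on the length used. Per kilobase of 1 representative transcript, Eif2s2 was at 139 CPM, Eif2s1 at 66.3 and Eif2s3x at 52.7. All 3 subunits are of low GC content (40.7% to 44.0%). Eif2s1 had 222, 259 and 221 CPM against 182, 243 and 229 CPM, Eif2s2 had 332, 419 and 331 CPM against 266, 364 and 402 CPM, and both were lowest in labelled-Vdbp replicate 1. Log2 fold changes of the 3 were between -0.10 and -0.066, and between 0.0056 and 0.079 with the offset. Eif2a, an eIF2-like initiation factor that is not an eIF2 subunit, had the smallest unadjusted p of the group, at 73.1, 80.7 and 70.8 CPM against 52.8, 69.9 and 80.6 CPM (log2 fold change -0.14 (SE 0.14, adjusted p = 0.797)). It was 0.010 without labelled-Vdbp replicate 1.

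Among the 5 eIF2B subunits 4 were above 0, and 3 with the offset. Eif2b5, given above, was the most abundant at 40.4 ± 3.58 FPKM, and the ranges of Eif2b2 (37.1 ± 3.32) and Eif2b1 (35.1 ± 1.84) overlapped with it. Eif2b4 followed at 17.3 ± 1.62 and Eif2b3 at 8.07 ± 0.860, each with a range below that of the subunit before it. This order depends on the length used. Per kilobase of 1 representative transcript it was Eif2b1 (45.3 CPM), Eif2b2 (43.8), Eif2b5 (41.2), Eif2b3 (34.0) and Eif2b4 (22.4). The 3 subunits of high GC content, Eif2b2, Eif2b4 and Eif2b5, had log2 fold changes of 0.11, 0.071 and 0.20, which became -0.011, -0.059 and 0.15 with the offset.

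The eIF3 complex, the scaffold between the small subunit and eIF4G, had all 14 of its genes tested, 8 above and 6 below 0 (9 above with the offset), with 0 called. Leaving out Eif3j2, FPKM ran from 196 ± 15.2 for Eif3b to 14.5 ± 1.86 for Eif3j1, a ratio of 13.5 between transcripts whose proteins share a complex. Per kilobase of 1 transcript the ratio of highest to lowest was 16.5, with Eif3i highest at 259 CPM and Eif3j1 lowest at 15.7 CPM. Both ratios rest on Eif3j1. The next lowest subunit was Eif3e at 36.7 ± 6.91 FPKM, or Eif3a at 88.9 CPM per kilobase of 1 transcript. Eif3b, an RNA-binding core subunit, had 659, 591 and 659 CPM in the empty-vector libraries and 748, 652 and 640.3 CPM in those labelled Vdbp, with a log2 fold change of 0.096 (SE 0.099, adjusted p = 0.797), or 0.025 without labelled-Vdbp replicate 1. Eif3g had the smallest unadjusted p of the group: 139, 125 and 161 CPM against 198, 176 and 137 CPM. Its groups overlapped, as labelled-Vdbp replicate 3 lay with the controls, and its log2 fold change of 0.27 (SE 0.14, adjusted p = 0.781) became 0.13 with the offset and ran from 0.15 (without labelled-Vdbp replicate 1) to 0.40 (without replicate 3 of that group). At the other end, Eif3e, the subunit of lowest GC content, had 251, 313 and 234 CPM against 169, 254 and 267 CPM and a log2 fold change of -0.21 (SE 0.16, adjusted p = 0.782), or -0.077 with the offset. Leaving out labelled-Vdbp replicate 1 gave -0.026 for Eif3e, and leaving out replicate 3 of that group gave -0.33. In labelled-Vdbp replicate 1, Eif3e deviated from its mean by -0.53 and Eif3g by 0.37 on the log2 scale, so 2 subunits of 1 complex deviated in opposite directions within 1 library. In empty-vector replicate 2 the deviations were 0.36 and -0.30, the opposite way.

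Eif5a, whose product carries the amino acid hypusine, came next after Eef2 in FPKM. It had 1497, 1397 and 1500.5 CPM in the empty-vector libraries and 1900.2, 1621 and 1455 CPM in those labelled Vdbp. Labelled-Vdbp replicates 1 and 2 were above all controls and replicate 3 was among them, and the log2 fold change was 0.18 (SE 0.11, adjusted p = 0.781), or 0.095 with the offset and 0.073 without labelled-Vdbp replicate 1. Eif6, which keeps the large subunit from joining early, had 416, 385 and 491 CPM against 599, 495 and 416 CPM, with the groups overlapping and a log2 fold change of 0.23 (SE 0.14, adjusted p = 0.781), or 0.11 with the offset and 0.084 without that library.

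Of the eEF1 genes, with Eef1e1 (log2 fold change -0.089) placed here by name, 3 of 5 tested were above 0. Eef1a1 had 8923, 8733 and 8013 CPM in the empty-vector libraries and 8043, 8280.3 and 8423 CPM in those labelled Vdbp, a log2 fold change of -0.053 (SE 0.096, adjusted p = 0.870). The eEF1B subunits Eef1b2, Eef1d and Eef1g lay on the other side of 0, at 0.17, 0.20 and 0.14, or 0.18, 0.12 and 0.096 with the offset. Eef1d had 232, 201 and 237 CPM against 285, 254 and 233 CPM, and Eef1g had 1346, 1201 and 1309 CPM against 1589, 1279 and 1371 CPM; both overlapped between groups. Without labelled-Vdbp replicate 1 the log2 fold changes of Eef1d and Eef1g were 0.13 and 0.046. Per length, the eEF1B subunits differed from each other far more than the groups did. Eef1g at 516 ± 50.2 FPKM, Eef1b2 at 211 ± 14.6 and Eef1d at 36.8 ± 4.27 had ranges that did not overlap. The size of these gaps depends on the length used. Per kilobase of 1 representative transcript, Eef1g was at 724 CPM, Eef1b2 at 277 and Eef1d at 104.

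Eef2, the translocase, had 4641, 4089.5 and 4684 CPM in the empty-vector libraries and 5749, 4434 and 4478 CPM in those labelled Vdbp. Labelled-Vdbp replicate 1 was high, and the other labelled-Vdbp values lay among the controls. The log2 fold change was 0.13 (SE 0.12, adjusted p = 0.793), -0.0066 with the offset and -0.0025 without that library. Enzymes that modify elongation factors were scarcer: Eef1akmt1, a lysine methyltransferase of eEF1A, led at 24.0 ± 1.85 FPKM and had the smallest unadjusted p of this group (log2 fold change 0.14 (SE 0.12, adjusted p = 0.785)). Eef2k, the kinase that inhibits eEF2, was at 2.44 ± 0.249 FPKM, with 17.9, 16.4 and 18.2 CPM against 21.6, 18.1 and 16.67 CPM. Eef1akmt3 had the lowest fold change of all factors, but at 2.09, 3.32 and 2.48 CPM against 2.30, 2.27 and 2.17 CPM it rested on few counts and on 1 high control, and its 95% interval ran from -0.76 to 0.31.

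Several factors exist as paralogues, and no difference between the groups in the share of any of them was detected. Over 15 shares of summed family FPKM that could be compared, no exact permutation p was below 0.2 and all adjusted p were 1 (0.1 is the smallest p possible). Eif4a1 made up 93.5 ± 0.511% against 94.2 ± 0.445% (SD, n = 3 each; exact permutation p = 0.200, two-sided) of Eif4a1 and Eif4a2, whose coding sequences are identical at 77.9% of aligned positions. Eif4e made up 73.5 ± 3.03% against 69.2 ± 4.77% (SD, n = 3 each; exact permutation p = 0.300, two-sided) of its family, with Eif4e2 the rest but for traces of Eif4e3. In the eIF4E family the lowest share of Eif4e, 64.2%, was in labelled-Vdbp replicate 1 and the highest, 76.8%, in empty-vector replicate 2. Which of the family is larger depends on the length used. Per kilobase of 1 representative transcript, Eif4e2 was above Eif4e, at 76.4 against 56.1 CPM. Eif4ebp1 made up 80.1 ± 2.44% against 81.9 ± 2.83% (SD, n = 3 each; exact permutation p = 0.400, two-sided) of the 4E-binding proteins, Eif1 86.1 ± 0.793% against 86.6 ± 1.87% (SD, n = 3 each; exact permutation p = 0.700, two-sided) of Eif1 and Eif1b, and Eif1a 65.4 ± 2.59% against 63.1 ± 2.395% (SD, n = 3 each; exact permutation p = 0.5, two-sided) of Eif1a and Eif1ax. Eef1a1, Eif5a and Eif2s3x made up at least 99.9954% of their families in every library.

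The eIF4G family shows a paralogue of a different kind. Eif4g2 lacks the part of eIF4G that binds eIF4E, and was the most abundant member: 54.5 ± 3.09% against 51.9 ± 5.00% (SD, n = 3 each; exact permutation p = 0.600, two-sided), beside 37.8 ± 2.58% against 40.5 ± 4.61% (SD, n = 3 each; exact permutation p = 0.5, two-sided) for Eif4g1 and 7.61 ± 0.518% against 7.62 ± 0.460% for Eif4g3. Its annotated coding sequence also begins at a codon other than ATG, as the first 30 coding bases show, with the start codon in capitals (GENCODE M21, GRCm38).
Eif4g1 (chromosome 16, 20668313 to 20692884, plus strand): ATGaacaaagctccccagcccacaggcccc
Eif4g2 (chromosome 7, 111067750 to 111083030, minus strand): GTGgagagtgcgattgcagaagggggtgct

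Eif4g2 had 1146, 1304 and 1084 CPM in the empty-vector libraries and 912, 1149 and 1209 CPM in those labelled Vdbp, with labelled-Vdbp replicate 1 lowest. Eif4g1, of higher GC content (54.6% against 43.4%), had 598, 563 and 593 CPM against 645, 601 and 570.5 CPM, with that library highest. Their log2 fold changes were -0.11 (SE 0.12, adjusted p = 0.803) and 0.050 (SE 0.091, adjusted p = 0.870), or 0.023 and -0.020 with the offset.

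Some factors share long stretches with processed copies elsewhere in the genome, so their reads may be divided between the rows. Eif4a-ps4, a processed pseudogene, holds 64.9% of the 50-base stretches of Eif4a1 transcripts. It had 317, 302 and 205 CPM in the empty-vector libraries and 186, 202 and 221 CPM in those labelled Vdbp. Empty-vector replicates 1 and 2 stood high and replicate 3 lay among the labelled-Vdbp values. The log2 fold change of the copy was -0.44 (SE 0.15, adjusted p = 0.781), and adding its counts to Eif4a1 moved the value of the parent from 0.072 to -0.0080. Copies made up 15.7% of the summed counts for Eif4a1, 12.4% for Eif2s2 (from Gm9892), 3.02% for Eef1g and 0.575% for Eef1a1. Eif3j1 and Eif3j2 are identical at 99.2% of aligned coding positions, and Eif3j2 shares 90.8% of its 50-base stretches with Eif3j1. Eif3j2 had 8.91, 2.35 and 1.83 CPM against 3.42, 4.72 and 3.77 CPM, so that it was 21.7% of the pair in empty-vector replicate 1 and 5.08% to 12.1% elsewhere. Values of these genes are uncertain to that extent.

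**Figure D5:**
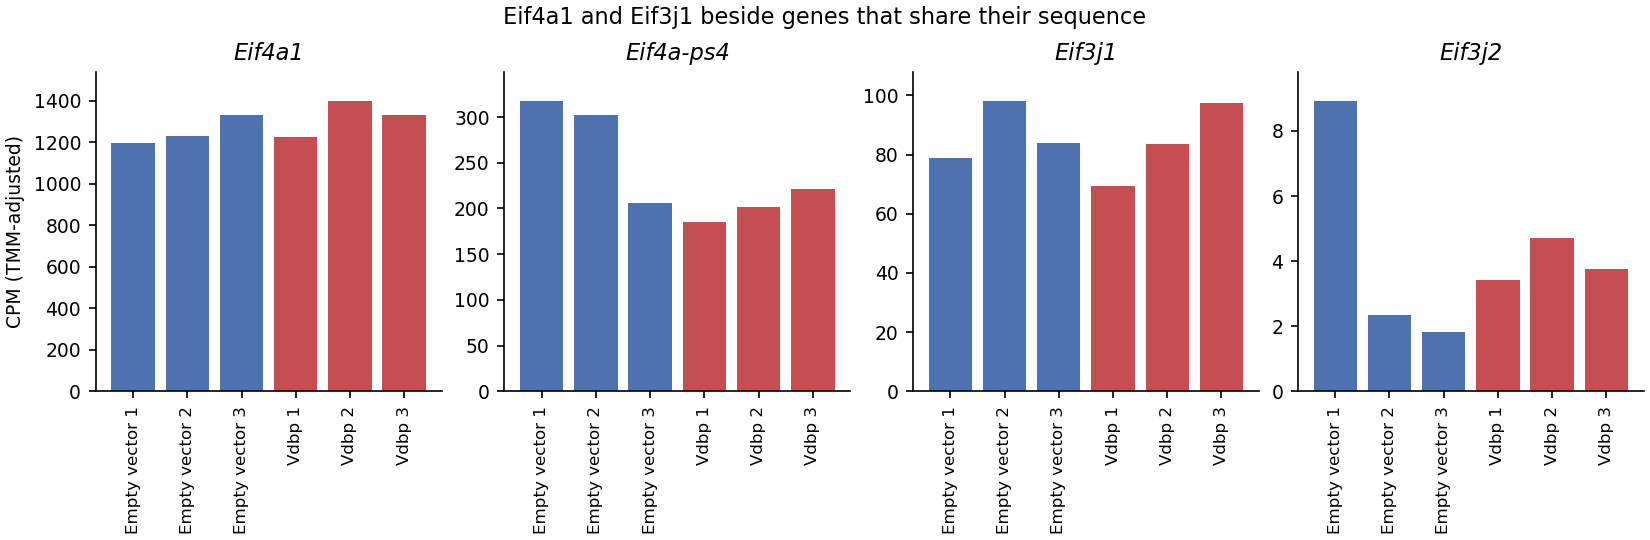
CPM of Eif4a1, its processed pseudogene Eif4a-ps4, Eif3j1 and Eif3j2 in each library (bars start at 0; blue, empty vector; red, labelled Vdbp; each panel has its own scale). Eif4a-ps4 is high in empty-vector replicates 1 and 2 and Eif3j2 in empty-vector replicate 1, while neither parent shows the same order.

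Genes around the factors were examined in 6 lists. None of the 11 eIF2 kinase, phosphatase and ATF4-arm genes passed the adjusted threshold, 4 above and 7 below 0 with a median of -0.042 (4 above and -0.050 with the offset). Atf4, the transcription factor made when eIF2 is phosphorylated, had the most counts of them at 555, 479 and 513 CPM against 596, 551 and 537 CPM (log2 fold change 0.12 (SE 0.096, adjusted p = 0.783)). Among 14 genes of mTORC1, the kinase complex that inactivates the 4E-binding proteins, and its translation targets, 8 were above and 6 below 0, with a median of 0.013. With the offset 4 of these 14 were above 0 and the median was -0.015, and without labelled-Vdbp replicate 2 it was 0.071. Rps6, a ribosomal protein phosphorylated downstream of mTORC1, had the most counts (log2 fold change -0.073 (SE 0.099, adjusted p = 0.831)). Pdcd4, an inhibitor of eIF4A, and Tsc1, an inhibitor of mTORC1, were the 2 of the 14 (14.3%, against 10.9% of all genes) whose groups did not overlap, and are named after their values were seen. Pdcd4 had 2.397, 2.84 and 2.90 CPM against 2.05, 1.67 and 1.98 CPM (log2 fold change -0.51 (SE 0.23, adjusted p = 0.781)). Tsc1 had 42.8, 44.5 and 44.0 CPM against 39.2, 37.0 and 37.2 CPM (log2 fold change -0.21 (SE 0.10, adjusted p = 0.781)).

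In the other 4 lists 0 genes passed as well. Of 16 poly(A)-binding, cap-kinase and accessory initiation genes 5 were above 0 (median -0.059). With the offset 10 of them were above 0 and the median was 0.016, and without labelled-Vdbp replicate 1 it was 0.049. Pabpc1, the poly(A)-binding protein, had the most counts of that list and a log2 fold change of -0.070 (SE 0.10, adjusted p = 0.844). Of 9 tested termination, recycling and rescue genes 5 were above 0 (median 0.021, or 6 and 0.029 with the offset), with Etf1, the release factor, at -0.12. Of 12 hypusine, diphthamide and selenocysteine genes 9 were above 0 (median 0.045, or 6 and 0.020 with the offset), with Sephs2, which makes selenophosphate, at 0.00098. Of 11 mitochondrial translation factors 3 were above 0 (median -0.072). With the offset 6 of the 11 were above 0 and the median was 0.018; it was 0.012 without empty-vector replicate 2 and -0.0025 without labelled-Vdbp replicate 1. The elongation factor Gfm1, with the most counts of the list, was at -0.0048, and Tufm, the elongation factor with the highest FPKM of the list, was at 0.14. For comparison, 76 cytosolic ribosomal protein genes had a median of 0.11 (0.072 with the offset) and 20 cytosolic aminoacyl-tRNA synthetase genes one of 0.023 (0.040), against -0.0068 over all tested genes.

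Upstream of the genes, RefSeq promoter windows (GRCm38.p6, 250 bases before to 50 after the start) matched 48 of the 64 factors by symbol. They were searched for 6 motifs, and a gene was counted if any of its windows matched (32851 windows of 27025 genes). The background held every gene with a window, whether or not it was tested here. The E-box CACGTG, bound by Myc-type factors, was in 13 of the 48 (27.1%) and in 8.09% of the 27025 genes. It was searched on both strands, as were all but the transcript start below. The ETS motif CCGGAAG was in 16 (33.3% against 9.93%) and the GC box GGGCGG in 37 (77.1% against 38.2%). The TATA box TATAAA was in 5 (10.4% against 15.7%), the ATF4 element TGATGNAAT in 0 (against 1.08%), and a transcript start of C followed by at least 4 pyrimidines, as in TOP mRNAs, in 2 (4.17% against 3.01%). In 56 ribosomal protein genes with a window the shares were 10.7% for the E-box, 41.1% for ETS and 60.7% for the GC box. They were 10.7% for TATA, 0% for the ATF4 element and 23.2% for the TOP start. The TOP search read only the annotated start base of each window, so a TOP start at any other base was not counted. The TOP shares therefore do not tell how many of these genes have a TOP start. A match is a description of these letters and not a binding site, and no window was measured here.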

How the data were processed

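The 6 mRNA libraries of DC2.4 cells were used, 3 per group by their labels. The authors deposited whole-number counts per gene and FPKM. The submitters' processing notes name HISAT2 and StringTie, with no role or version; what counted the reads, with which strand setting and on which build, was not given in the sources used here. Per the file headers the FPKM table pairs with the counts, and its deposited FPKM equal count over deposited gene length up to a constant per library (largest relative gap 1.3e-13).

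Counts were tested in edgeR 4.0.16 (R 4.3.3) with its low-count filter (minimum count 10, total 15), TMM scaling and the quasi-likelihood test, two-sided, on group alone. Adjusted p-values are Benjamini-Hochberg over 12844 genes with a threshold of 0.05. SE is the log2 fold change over the root of F, and intervals are 95%. CPM use TMM-adjusted library sizes; deviations use log2 CPM with a prior count of 2. The offset came from mgcv 1.9.3. GC content is from GENCODE M21 transcripts. Alternatives included DESeq2 1.42.0 and limma 3.58.1. Fits were run on simulated counts with planted changes. Those counts held no trend with GC content or length, so they do not check how the fits handle one. The planted changes were also larger than any fitted for a factor with TMM and all libraries. Intervals of fold changes come from this fit and hold the spread between libraries; limits from 0 counts (3 counts) cover counting error only.

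The members and lists were chosen with earlier results of these data known. The ribosomal protein and synthetase lists and the coding sequences shown were chosen after values were seen. Named with values were Gc, the member of each role with the highest FPKM and that with the lowest p, paralogues, untested members, and the gene of each pathway list with the highest mean CPM (Tufm was added after values were seen); further members are named in the ordered account of fold changes. Of 2 rows named Ddit3 the one with counts was kept, and Gcn1 had no row under that symbol.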

Additional observations from a re-analysis of the deposited data

How the results depend on the processing

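The count of 0 factors past the adjusted threshold was the same in every alternative run. The number of genes called in all was 11 with DESeq2, 89 without a filter on low counts, 4 with limma on log2(FPKM + 1), 2 with the length and GC offset and 0 to 22 when 1 library was left out (22 when it was empty-vector replicate 3 and 1 when it was replicate 2 of that group). The median log2 fold change of the factors stayed above 0, between 0.0029 and 0.040 with 1 library left out (0.040 without empty-vector replicate 1). The ratio of the highest to the lowest eIF3 subunit was 7.72 in CPM without division by length, 16.5 per kilobase of 1 transcript and 12.6 to 14.2 with 1 library left out. For these ratios Eif3j2 was left out and Eif3j1 was the lowest subunit. Replicate numbers are shared by the groups, but same-numbered libraries did not deviate together (r = 0.144, 0.034 and -0.265), so they were not treated as pairs. With the replicate block, 0 genes and 0 factors were called, and the median of the factors was 0.016. Labelled-Vdbp replicates 1 and 3 correlated best with empty-vector libraries of another number. Signs of the 58 single fold changes, most of them within 1 SE of 0 with all libraries and TMM where they turned, changed for 20 with the offset, 21 with the offset and replicate block, 26 without labelled-Vdbp replicate 1, and between 1 and 7 without another library. With the offset, and with the offset and the replicate block, they became -0.0066 and -0.0073 for Eef2, 0.023 and 0.023 for Eif4g2, -0.0043 and -0.0041 for Eif3b, -0.020 and -0.021 for Eif4g1, 0.072 and 0.073 for Eif3a, 0.079 and 0.079 for Eif2s2, 0.025 and 0.024 for Eif2s1, -0.020 and -0.019 for Eif3h, 0.0056 and 0.0055 for Eif2s3x, -0.034 and -0.034 for Eif1ad, 0.048 and 0.048 for Eif3m, 0.13 and 0.13 for Eif1ax, 0.035 and 0.034 for Eif4a2, 0.039 and 0.037 for Eif3j1, -0.013 and -0.014 for Eif2d, -0.011 and -0.012 for Eif2b2, 0.044 and 0.039 for Eif2b3, -0.059 and -0.059 for Eif2b4, -0.095 and -0.096 for Eef2kmt and 0.054 and 0.064 for Eef1akmt2. With the offset and block alone they became 0.24 for Eif3j2. Other settings turned Eif2d to -7.4e-05 (total-count scaling), Eif3j2 to 0.19 (limma on log2(FPKM + 0.1)), Eif3j2 to 0.057 (limma on log2(FPKM + 1)), Eif3j2 to 0.057 (limma on log2(FPKM + 1), 0.5 FPKM in 3 libraries), Eif3j2 to 0.23 (limma-voom), Eif3j2 to 0.12 (replicate block), Eif4a1 to -0.0080 (copies added to their parent genes), Eif5 to -0.0011 (limma-voom) and Eif5 to -0.0012 (replicate block). Leaving out 1 library gave ranges across 0 of -0.0025 to 0.19 for Eef2, -0.19 to 0.0053 for Eif4g2, -0.10 to 0.042 for Eif3a, -0.19 to 0.092 for Eif2s2, -0.025 to 0.054 for Eif1, -0.031 to 0.089 for Eif3i, -0.10 to 0.14 for Eif5, -0.014 to 0.17 for Eif3f, -0.19 to 0.016 for Eif2s1, -0.014 to 0.047 for Eif3h, -0.14 to 0.0095 for Eif2s3x, -0.031 to 0.046 for Eif1ad, -0.16 to 0.047 for Eif3m, -0.081 to 0.063 for Eif1ax, -0.17 to 0.017 for Eif4a2, -0.15 to 0.0099 for Eef1e1, -0.044 to 0.052 for Eif2b1, -0.18 to 0.063 for Eif3j1, -0.058 to 0.046 for Eif2d, -0.0014 to 0.17 for Eif4ebp2, -0.29 to 0.010 for Eif2a, -0.12 to 0.098 for Eif2b3, -0.020 to 0.15 for Eif2b4, -0.14 to 0.022 for Eif1b, -0.0050 to 0.026 for Eef2kmt, -0.0064 to 0.18 for Eef2k, -0.097 to 0.26 for Eef1akmt4, -0.13 to 0.12 for Eef1akmt2 and -0.50 to 0.92 for Eif3j2. The cause of these changes was not tested. The pooled copies, the offset with the block and the single-transcript length were added after the data were seen. With 3 libraries a group and these depths, 23 of the 58 intervals lay within a 1.25-fold change.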
